A study of Mus musculus with 2 samples.

Results

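The 9 genes described here encode factors of the bone marrow niche, or proteins that mark or regulate the cells making them: *Cxcl12*, *Kitl*, *Il7*, *Csf1*, *Adipoq*, *Grem1*, *Lepr*, *Ebf3* and *Foxc1*. They were taken by symbol from the 32285 genes of the count files, and all 9 were found, each under 1 identifier. They were followed in 4502 tdTomato-sorted single cells from mouse femur and muscle, which were assigned to cell types with marker lists that hold none of the 9 genes.

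Blood formation in adult marrow depends on stromal cells that surround the sinusoids. These cells, known as CXCL12-abundant reticular or LEPR-positive stromal cells, secrete CXCL12, which retains haematopoietic stem cells, B cell precursors and neutrophils through the receptor CXCR4, and KITL (stem cell factor), which maintains stem cells through the receptor KIT. IL7 from the same stroma drives early B cell growth, CSF1 supports monocytes, macrophages and osteoclasts, and adiponectin is made by marrow stroma as well as by adipocytes. EBF3 and FOXC1 are transcription factors known to keep these cells in their niche-supporting state, LEPR (the leptin receptor) is their usual marker, and gremlin 1 is a secreted BMP antagonist found in skeletal progenitors.

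The cells came from Clec3b.creERT2; Ai14.R26.tdTomato mice, in which tamoxifen lets Cre under the *Clec3b* promoter turn on tdTomato permanently. The mice received tamoxifen 2 weeks before a stabilised fracture of the right femur, made at 6 weeks of age. From 3 littermates, fracture calluses (callus) and intact diaphyses with the muscle around them (intact) were pooled separately 3 weeks after surgery and sorted for tdTomato. Each condition is 1 library, so mice cannot be told apart, no difference between the libraries has a biological error or a test, and an effect of fracture cannot be told apart from a difference between these 2 libraries.

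After filtering, 1207 intact cells with 7518795 unique molecular identifiers (UMIs, counted transcripts) and 3295 callus cells with 34287541 UMIs remained, with medians of 4939 and 6843 UMIs per cell. A single barcode occurred in both libraries. The mice are described as male, but of the cells with at least 5000 UMIs, 78.1% in the intact and 89.8% in the callus library carried *Xist*, and 4 Y-linked genes held 1 and 0 UMIs in all cells. Stromal cells numbered 295 in each library. Of these, 37 callus cells (12.5%, 95% exact Clopper-Pearson interval 8.99 to 16.9%) and 0 intact cells (Clopper-Pearson upper limit 1.24%, and 1.02% by the limit of 3 counts used for other counts of 0) were bone marrow stromal cell-like (BMSC-like), a name given to stromal cells with at least 4 of *Esm1*, *Gdpd2*, *Kng1*, *Kng2*, *Dpep1*, *Agt*, *Lpl*, *1500009L16Rik*, *Hp* and *Fst*, where this list had the largest detected share of all stromal lists. The other groups used most were 222 callus and 294 intact fibroblasts, 32 callus osteoblast-like cells, 101 callus and 28 intact endothelial cells, and blood cells of many types. The study took blood and endothelial cells for carry-over of the sort, because they lacked tdTomato transcripts, and set them aside. tdTomato was not measured here, so values for these cells are not taken as those of *Clec3b*-lineage cells. The 5 adipocyte markers (*Plin1*, *Cidec*, *Plin4*, *Retn* and *Pck1*) were all at 0 UMIs in the BMSC-like cells. They were also at 0 in callus fibroblasts and osteoblast-like cells, so this does not set the BMSC-like cells apart. *Adipoq* and *Cebpa*, known from fat cells too, are outside that list and were higher in BMSC-like cells than in callus fibroblasts. The 8 osteoblast markers summed to 6414 UMIs per 1000000 in BMSC-like cells, against 78130 in osteoblast-like cells. Nearly all of the first sum was *Ibsp* (bone sialoprotein), at 6066 in 30 of 37 BMSC-like cells and 3943 in osteoblast-like cells, while *Bglap* (osteocalcin) was at 154 and 49640. The osteoblast factor gene *Sp7* was in 13 of the 37 cells. The 8 pericyte and smooth muscle markers summed to 291 in BMSC-like cells, above the 161 in osteoblast-like cells, 170 in endothelial cells and 91.6 in fibroblasts, with *Notch3* in 20 of the 37 cells and *Myh11*, *Higd1b* and *Ndufa4l2* at 0. The 9 endothelial markers summed to 93.0, against 10530 in endothelial cells. The 8 *Pi16*-type fibroblast markers summed to 764 in BMSC-like cells, against 7436 in callus fibroblasts. Most of the first sum was *Fbn1*, at 675, while *Pi16*, *Dpp4* and *Sema3c* were at 0. The part these transcripts have in the values below was not tested.

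The starts of these genes differ widely in base composition, and 6 of their promoter windows are shown. A window runs from 250 bases before to 50 bases after the RefSeq transcript start in build GRCm38.p6. Windows were held for 8 of the 9 genes (not *Il7*), with 2 for *Lepr*, whose starts lie at different sites. They were searched on both strands for the binding motif of EBF factors (TCCCNNGGG, and 1 base longer, ending in A), for the forkhead motif of FOX factors (TGTTTA, and 1 base longer as TGTTTAC) and for the TATA box (TATAAA). The shorter forms and the TATA box were added after the longer forms had given no match. Capitals mark each match. The windows not shown, those of *Lepr* and *Foxc1*, held no match to any of these motifs.
Cxcl12 (chr6:117168285-117168584, plus strand): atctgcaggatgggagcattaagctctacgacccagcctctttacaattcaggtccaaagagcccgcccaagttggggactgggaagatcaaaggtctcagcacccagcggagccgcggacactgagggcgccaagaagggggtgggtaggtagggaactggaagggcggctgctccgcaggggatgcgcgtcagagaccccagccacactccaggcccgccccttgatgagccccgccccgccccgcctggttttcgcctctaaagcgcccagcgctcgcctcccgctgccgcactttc
Kitl (chr10:100015571-100015870, plus strand): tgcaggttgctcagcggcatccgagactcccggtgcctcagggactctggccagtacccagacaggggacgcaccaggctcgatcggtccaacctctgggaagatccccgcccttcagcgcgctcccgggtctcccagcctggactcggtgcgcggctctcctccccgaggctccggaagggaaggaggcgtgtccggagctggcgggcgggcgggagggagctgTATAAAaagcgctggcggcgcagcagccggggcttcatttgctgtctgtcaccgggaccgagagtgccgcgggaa
Adipoq (chr16:23146286-23146585, plus strand): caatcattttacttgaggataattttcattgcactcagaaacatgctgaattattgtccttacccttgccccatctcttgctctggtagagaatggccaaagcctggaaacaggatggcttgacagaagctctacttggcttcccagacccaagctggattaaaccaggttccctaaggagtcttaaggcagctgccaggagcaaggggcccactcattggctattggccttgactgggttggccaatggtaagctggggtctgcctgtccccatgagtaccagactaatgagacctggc
Csf1 (chr3:107760420-107760719, minus strand): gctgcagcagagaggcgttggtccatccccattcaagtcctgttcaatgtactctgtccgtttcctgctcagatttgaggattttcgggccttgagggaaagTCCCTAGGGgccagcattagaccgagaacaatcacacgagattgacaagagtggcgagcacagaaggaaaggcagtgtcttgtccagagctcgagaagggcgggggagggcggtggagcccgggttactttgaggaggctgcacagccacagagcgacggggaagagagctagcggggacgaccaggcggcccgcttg
Ebf3 (chr7:137314396-137314695, minus strand): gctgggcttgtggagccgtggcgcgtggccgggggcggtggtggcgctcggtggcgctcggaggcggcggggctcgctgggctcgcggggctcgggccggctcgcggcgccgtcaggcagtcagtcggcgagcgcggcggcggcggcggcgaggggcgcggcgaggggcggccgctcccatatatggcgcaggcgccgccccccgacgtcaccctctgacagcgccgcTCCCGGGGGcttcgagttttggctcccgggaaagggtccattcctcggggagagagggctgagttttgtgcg
Grem1 (chr2:113758599-113758898, minus strand): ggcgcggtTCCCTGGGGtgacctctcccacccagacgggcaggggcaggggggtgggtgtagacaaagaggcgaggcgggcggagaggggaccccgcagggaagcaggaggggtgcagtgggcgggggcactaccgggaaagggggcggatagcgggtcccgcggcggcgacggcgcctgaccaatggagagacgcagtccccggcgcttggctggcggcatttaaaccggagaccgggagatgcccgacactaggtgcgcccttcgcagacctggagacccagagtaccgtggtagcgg
None of the 9 windows held the longer EBF motif, which 0.904% of all 32851 mouse windows held, or either forkhead motif, which 3.65% (longer) and 13.4% (shorter) held. The shorter EBF motif was in 3 windows, at base 103 of the *Csf1*, base 229 of the *Ebf3* and base 9 of the *Grem1* window, against 6.56% of all windows. That motif is mostly G and C, and the 6.56% is not matched for GC content. The part GC content has in these matches was not tested. A TATA box was present only in the *Kitl* window, at base 226, against 13.6% of all windows. GC content was lowest in the *Adipoq* window and was 58.7% for *Csf1*, 64.7% for *Cxcl12*, 68.7% for *Kitl*, 70.7% for *Grem1* and 77.0% for *Ebf3*, with a median of 52.7% over all windows. A match is a run of letters and no match says only that these letters are not in the window.

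To ask which cells expressed the niche genes, UMIs were summed over each of 29 combinations of cell type and library with at least 20 cells and expressed per 1000000 (CPM). 8 of the 9 genes were highest in callus BMSC-like cells, and *Csf1* was highest in the callus gate for eosinophils, basophils and mast cells. The share of all genes that were highest in BMSC-like cells was not computed, so this count cannot be weighed against it. *Adipoq* and *Grem1* were not detected in any of the 1207 intact cells, which allows up to 0.249% of cells with a UMI, whereas the callus library held 730 and 160 UMIs of them. Although the BMSC-like cells were 1.12% of callus cells, they held 85.3% of that library's *Adipoq*, 74.4% of its *Grem1*, 74.3% of its *Lepr*, 72.4% of its *Il7*, 64.8% of its *Cxcl12*, 54.1% of its *Foxc1*, 46.8% of its *Ebf3*, 38.3% of its *Kitl* and 11.6% of its *Csf1* UMIs. For *Kitl* the endothelial cells held a further 44.3%, and for *Ebf3* the fibroblasts held 30.3% and the endothelial cells 15.2%.

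**Figure D1:**
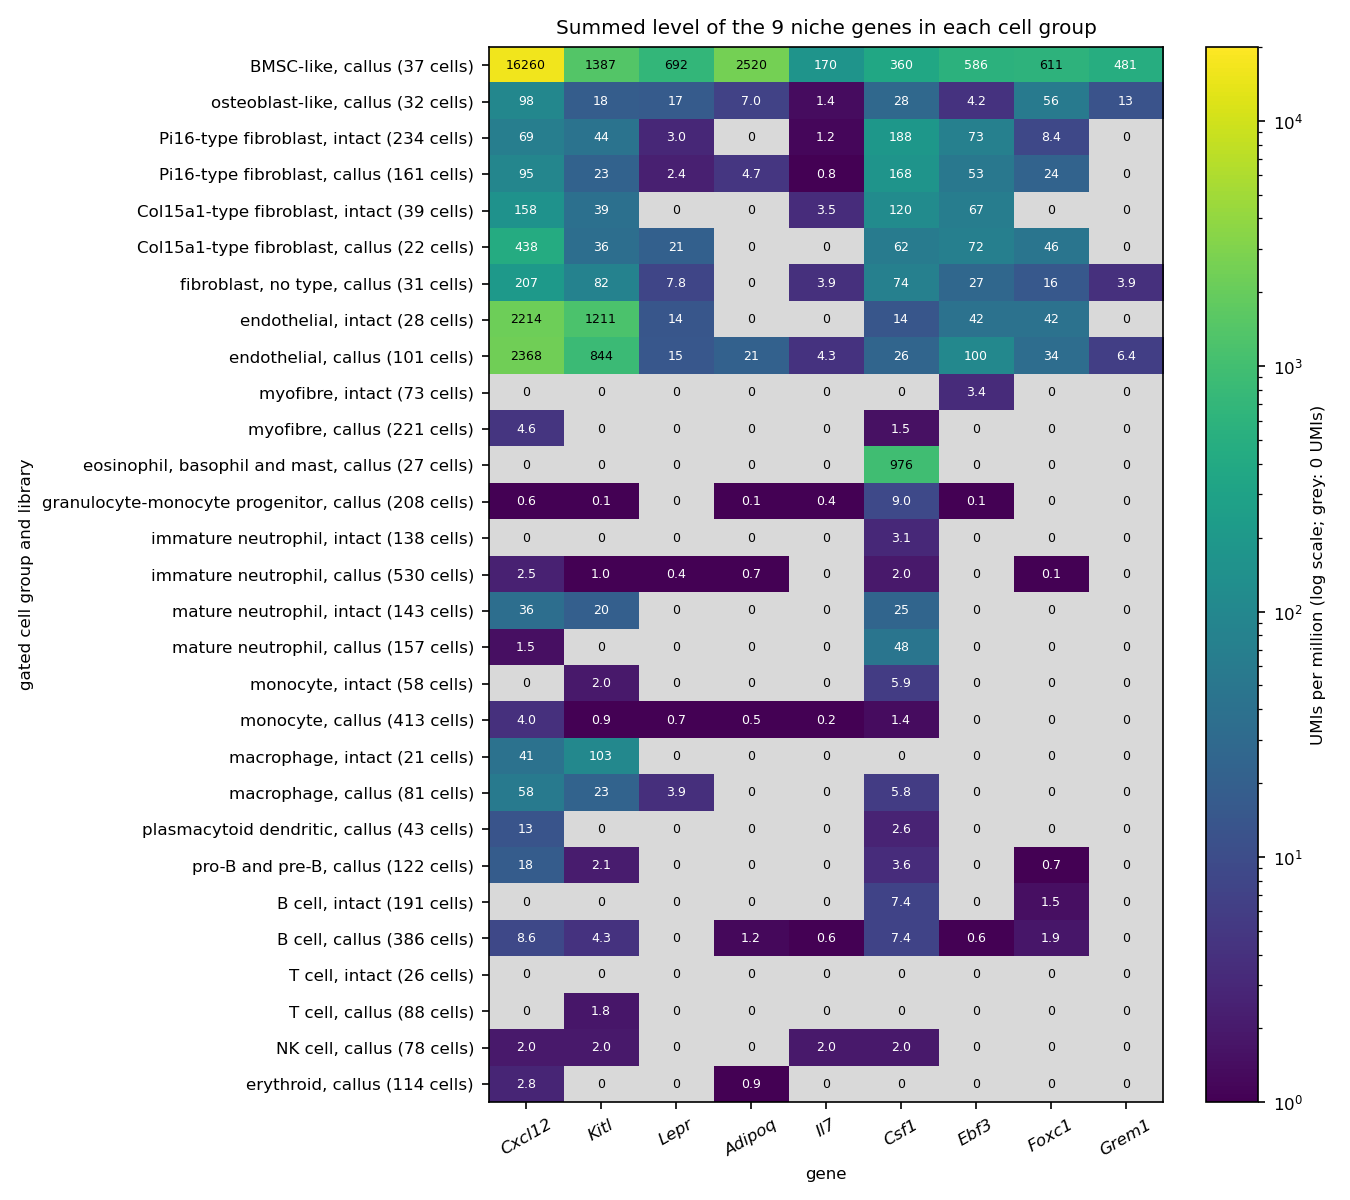
Heat map of the summed level of the 9 genes (columns) in each gated cell group and library (rows, with the number of cells), in UMIs per 1000000 UMIs of the group on a log colour scale, grey where no UMI was counted. The BMSC-like row is filled for all 9 genes, the endothelial rows stand out for *Cxcl12* and *Kitl*, and the row of eosinophils, basophils and mast cells for *Csf1*.

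*Cxcl12* (ENSMUSG00000061353, chr6:117168535-117181367, plus strand; all gene positions are GRCm38, GENCODE vM21) reached 16260 CPM in BMSC-like cells (Poisson interval 15760 to 16770, 4020 UMIs). All 37 cells carried it, from 2081 to 32140 UMIs per 1000000 of the cell with a median of 18520. Endothelial cells came next, at 2368 CPM (2230 to 2511) in the callus and 2214 (1883 to 2586) in the intact library, and these intervals overlapped. The single BMSC-like cells and the single endothelial cells overlapped in range, since callus endothelial cells ran from 0 to 10900 with a median of 1682. *Cxcl12* was lower in fibroblasts, at 144 CPM in the callus and 79.9 in the intact library, and it stood at 98.3 CPM in osteoblast-like cells, where 39 of 70 UMIs came from 1 cell. Leaving out the cell with the most *Cxcl12* in each group raised the BMSC-like over osteoblast-like ratio from 165 to 367, and grouping by clusters raised it to 2282.

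After drawing 2000 UMIs from every cell, 33 of 33 BMSC-like cells still carried *Cxcl12* (89.4 to 100%), as did 83.5% of 85 callus (73.9 to 90.7%) and 88.2% of 17 intact endothelial cells (63.6 to 98.5%). Among typed blood cells, which serve as the background of free RNA, the share was 0.762% of 2100 callus cells (0.436 to 1.23%) and 0.491% of 611 intact cells. Median depth before thinning was 7354 UMIs in these callus blood cells and 6682 in BMSC-like cells. In some blood groups 1 cell held most of the transcript, with 24 of the 25 UMIs in pro-B and pre-B cells and 18 of the 20 in intact mature neutrophils. In others it was scattered, with 17 UMIs in 8 callus monocytes and at most 3 in any of them.

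The level of *Cxcl12* was also summed by the number of BMSC markers found in a stromal cell of either library. *Cxcl12* was not among these markers, but they were chosen with earlier results of these data known. Low marker numbers do not measure likeness to BMSC-like cells, since *Lpl*, *Dpep1* and *Fst* were in 149, 118 and 103 of 222 callus fibroblasts. Stromal cells with 0, 1, 2 and 3 of the 10 markers had 24.6, 61.9, 107 and 122 CPM, respectively. Those with 4 had 361, those with 5, 6 and 7 had between 5449 and 6725, and those with 8 to 10 had between 14760 and 22760. Cells with 5 or more markers occurred only in the callus library, and 15 intact stromal cells had 4. Only 2 cells had 5 markers, and of the 9 callus cells with 4 markers 1 was in the BMSC-like group, so the step between 4 and 5 lay at the edge of that group. All cells with 8 to 10 markers were in the BMSC-like group.

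*Kitl* (ENSMUSG00000019966, chr10:100015630-100100416, plus strand) encodes stem cell factor and was shared between marrow stroma and endothelium. It was at 1387 CPM (1244 to 1542) in BMSC-like, 1211 (970 to 1494) in intact endothelial and 845 (763 to 932) in callus endothelial cells. The first 2 intervals overlapped, and the third lay below both. The ratio of BMSC-like over callus endothelial cells was 1.64 (exact interval 1.42 to 1.90), which was the smallest of the 9 genes. After thinning, 75.8% of BMSC-like (57.7 to 88.9%), 70.6% of intact endothelial (44.0 to 89.7%) and 65.9% of callus endothelial cells (54.8 to 75.8%) carried it, against 0.286% of callus blood cells (0.105 to 0.621%). Intact macrophages followed at 103 CPM, which rested on 10 UMIs in 7 of 21 cells.

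*Adipoq* (ENSMUSG00000022878, chr16:23146536-23158028, plus strand), the gene of adiponectin, was at 2520 CPM (2326 to 2725) in BMSC-like cells. All 37 cells had at least 1 UMI, from 181 to 11790 UMIs per 1000000 with a median of 2626. The next group, callus endothelial cells, was at 21.3 CPM (10.2 to 39.1), with 6 of its 10 UMIs in 1 cell. The median cell of every other group had none. In 269 thinned intact fibroblasts no cell carried *Adipoq*, which allows up to 1.12%.

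*Il7* (ENSMUSG00000040329, chr3:7569994-7613760, minus strand), the lymphoid cytokine, had few UMIs. Its 42 UMIs in 20 of the 37 BMSC-like cells gave 170 CPM (122 to 230), and no other group exceeded 4.25 CPM. After thinning, 27.3% of BMSC-like cells carried it (13.3 to 45.5%) and 0.0476% of callus blood cells did (0.00121 to 0.265%). A cell without *Il7* cannot be called negative at this depth.

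*Csf1* (ENSMUSG00000014599, chr3:107741048-107760469, minus strand), the macrophage growth factor, followed another order. It was at 976 CPM (847 to 1120) in the 27 callus cells of the gate for eosinophils, basophils and mast cells, at 360 (289 to 443) in BMSC-like cells, and at 188 (168 to 210) and 168 (146 to 192) in intact and callus fibroblasts with *Pi16*-type markers. The first 2 intervals did not overlap, but the single cells did, since the gate ran from 0 to 9340 UMIs per 1000000 with a median of 357, and the BMSC-like cells from 0 to 1136 with a median of 291. Of the 27 cells, 22 carried *Csf1* and 1 held 47 of the 204 UMIs. These cells carried basophil genes: *Mcpt8*, a basophil protease, was in 22, *Prss34* in 20, and the eosinophil genes *Prg2* and *Epx* in none. The 6 cells of the same gate in the intact library, too few for a group, held 43 *Csf1* UMIs in 4 cells (1153 CPM). When cells were grouped by clusters in place of the gate, the cluster of that name was broader and *Csf1* in it was 143 CPM, so that BMSC-like cells were then highest for all 9 genes.

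The receptor and the transcription factors of this set were low outside the BMSC-like cells but not confined to them. *Lepr* (ENSMUSG00000057722, chr4:101717404-101815352, plus strand) was at 692 CPM (592 to 803) in BMSC-like cells, and the next groups, at 20.6 or less, had overlapping intervals. *Ebf3* (ENSMUSG00000010476, chr7:137193673-137314445, minus strand) was at 586 CPM (495 to 690) in BMSC-like cells, at 99.98 (73.5 to 133) in callus endothelial cells and at 73.5 (61.0 to 87.7) in intact *Pi16*-type fibroblasts, with no UMI in 17 of the 29 groups. *Foxc1* (ENSMUSG00000050295, chr13:31806633-31812476, plus strand) was at 611 CPM (517 to 716) in BMSC-like cells, followed by osteoblast-like cells at 56.2 (40.1 to 76.5), where 18 of 32 cells carried it at a median depth of 23613 UMIs. *Grem1* (ENSMUSG00000074934, chr2:113746164-113758646, minus strand) was at 481 CPM (399 to 576) in BMSC-like cells, and 25 of the 29 groups had no UMI. The 9 *Grem1* UMIs of the osteoblast-like group all came from 1 cell.

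**Figure D2:**
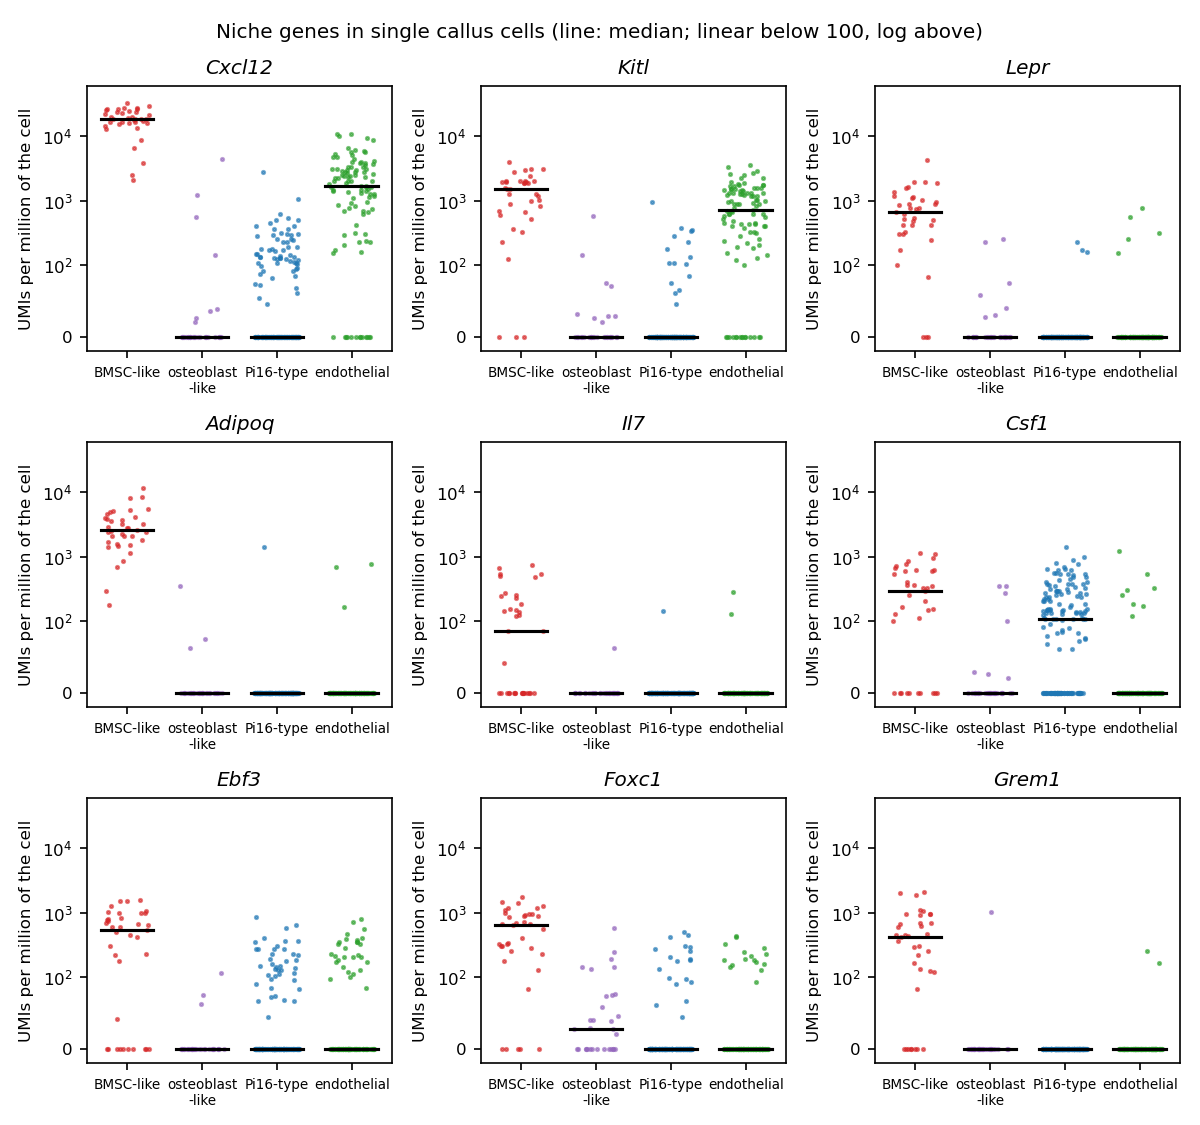
Each point is 1 callus cell, with the 9 genes in separate panels, the level in UMIs per 1000000 of that cell (linear below 100, logarithmic above) and black lines for medians. *Cxcl12* and *Adipoq* were above 0 in all 37 BMSC-like cells, *Cxcl12* and *Kitl* were also high in endothelial cells, and *Csf1* and *Ebf3* were scattered through *Pi16*-type fibroblasts.

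To place the BMSC-like cells among the callus stroma, each gene was compared with fibroblasts. A gene entered if both groups together had at least 20 UMIs and was counted if it differed at least 2-fold. Across all 8898 such genes, 16% were at least 2-fold higher in BMSC-like cells and 16.5% at least 2-fold lower. All 9 niche genes were higher. The count itself says little for *Lepr*, *Adipoq*, *Il7* and *Grem1*, because these had under 20 UMIs in fibroblasts and entered only through the BMSC-like cells. The 5 genes with more than 20 fibroblast UMIs had ratios of 113 (99.4 to 128) for *Cxcl12*, 43.9 (33.1 to 59.1) for *Kitl*, 23.9 (17.1 to 34.1) for *Foxc1*, 11.2 (8.61 to 14.7) for *Ebf3* and 2.65 (2.05 to 3.39) for *Csf1*. *Lepr* stood at 77.9 (46.6 to 139). For *Adipoq*, all 6 fibroblast UMIs came from 1 cell, and *Grem1* rested on 1 fibroblast UMI (ratio 867, 153 to 34540) and *Il7* on 2 (153, 39.8 to 1305).

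Against osteoblast-like cells, 40.7% of 5342 genes were at least 2-fold higher in BMSC-like cells, and all 9 niche genes were among them. The count says little for *Kitl*, *Lepr*, *Adipoq*, *Il7*, *Ebf3* and *Grem1*, which had under 20 osteoblast UMIs and entered only through the BMSC-like cells. The lowest ratios were 10.9 (7.63 to 15.8) for *Foxc1* and 12.8 (7.83 to 22.0) for *Csf1*. *Ebf3* differed more, at 139, but rested on 3 osteoblast UMIs (interval 46.7 to 683). Hence the 2 transcription factors ordered these cells differently. *Foxc1* was lower in fibroblasts (25.5 CPM) than in osteoblast-like cells, and *Ebf3* was lower in osteoblast-like cells (4.21 CPM, 3 UMIs) than in fibroblasts (52.2 CPM, 94 UMIs). Against callus endothelial cells, 14.8% of 6074 genes were at least 2-fold higher in BMSC-like cells, and 8 of the 9 niche genes were, all but *Kitl*. Here *Lepr*, *Adipoq*, *Il7*, *Csf1*, *Foxc1* and *Grem1* had under 20 endothelial UMIs and entered only through the BMSC-like cells. *Cxcl12* was 6.87-fold (6.42 to 7.35) and *Ebf3* 5.87-fold (4.195 to 8.33) higher.

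Expression in the same single cells was examined next, because a summed level does not say whether the genes share cells. After thinning, the 33 BMSC-like cells carried 3 to 9 of the 9 genes with a median of 6, and 25 cells carried at least 5. In the other groups of the callus, the median was 2 in endothelial cells, with 4 as the highest, 0 in osteoblast-like cells, with 1 cell at 5, and 0 in *Pi16*-type fibroblasts, with 3 as the highest. Without thinning, 35 of the 37 BMSC-like cells carried at least 5 genes, and these made up 35 of the 44 callus cells that did, while the intact library had 2 such cells. The other 9 callus cells were 3 osteoblast-like cells, 3 cells that carried both stromal and blood markers, 1 endothelial cell, 1 fibroblast without a type and 1 cell that passed no gate.

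**Figure D3:**
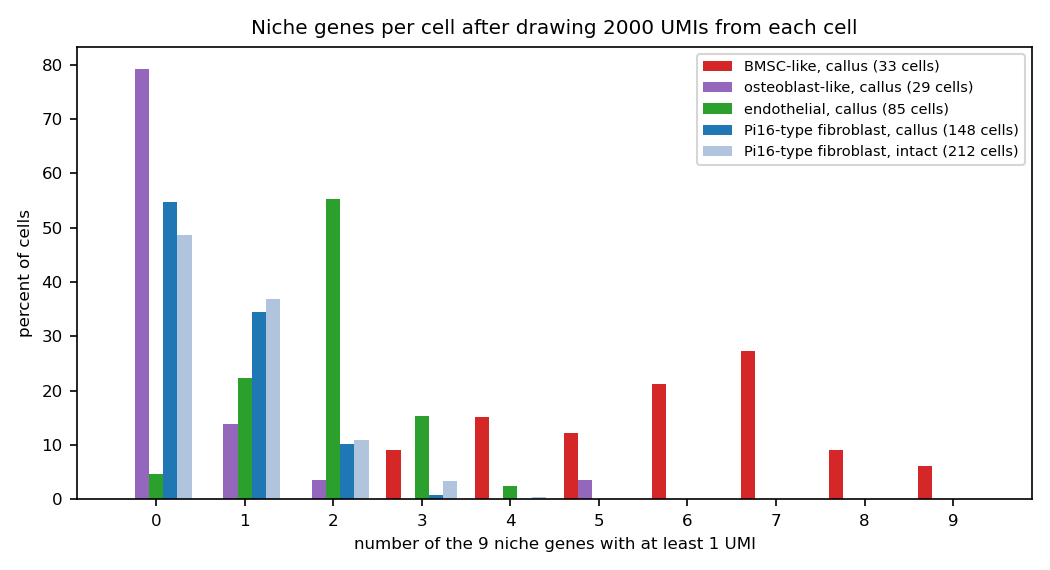
Percent of cells (vertical axis) carrying 0 to 9 of the niche genes (horizontal axis) after 2000 UMIs were drawn from each cell, for 5 groups. BMSC-like cells range from 3 to 9 with a median of 6, callus endothelial cells peak at 2, and fibroblasts and osteoblast-like cells are mostly at 0 or 1.

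Within the BMSC-like cells, the genes most often found together were *Cxcl12* and *Adipoq*, in 32 of 33 thinned cells. *Kitl* was found in 25 cells and *Foxc1* in 22, and all 22 cells with *Foxc1* also carried *Kitl*. Across the 33 cells, which share 1 library and 1 depth, the thinned log levels of these 2 genes had the highest Pearson correlation of the 36 pairs, at 0.705, followed by *Cxcl12* with *Adipoq* at 0.553 and *Kitl* with *Ebf3* at 0.442. The lowest was -0.204, for *Adipoq* with *Il7*. *Il7* and *Grem1* were carried together by 4 cells, with *Il7* in 9 and *Grem1* in 13. In these sparse counts the values are descriptions only, and weak ones carry no information.

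The genes whose levels over the 29 groups were most like each niche gene were ranked by Pearson correlation of log2 CPM (with 10 CPM added), among 12065 genes. For *Cxcl12* they were *Plxna2*, a semaphorin receptor (0.958), *Kitl* (0.95) and *Tmem47* (0.931). For *Kitl* they were *Cxcl12*, *Ptprm*, a receptor phosphatase (0.937), and *Plxna2* (0.930). *Adipoq*, *Grem1* and *Il7* were near one another, with correlations of 0.984 for *Adipoq* with *Grem1*, 0.979 for *Adipoq* with *Il7* and 0.977 for *Grem1* with *Il7*, and all 3 had *Agt*, one of the BMSC markers, among their closest genes. *Lepr* was closest to *Id4* (0.959), *Foxc1* to *Zfp532* (0.943) and then *Lepr* (0.941), *Ebf3* to *Enpp3* (0.977), and *Csf1* to *Nlgn2* (0.85). The groups share 2 libraries and many are at 0, so these are descriptions of 29 points. *Adipoq*, *Grem1* and *Il7* were at 21.3 CPM or less in every group but the BMSC-like cells, so their correlations rest mostly on that group. *Agt* is a marker of the gate that defines it. So are *Esm1* and *Gdpd2*, which were among the 3 closest genes of *Lepr* and *Grem1*, respectively.

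To ask whether the niche genes differed between the callus and the intact library within a cell type, fibroblasts and endothelial cells were compared, since the intact library had no BMSC-like cells. In fibroblasts, 4.91% of 10129 genes were at least 2-fold higher and 2.64% at least 2-fold lower in the callus. Of the 6 niche genes with enough UMIs, 1 was higher, *Foxc1*, and 0 were lower. The count says little for *Foxc1*, which had under 20 UMIs in intact fibroblasts and entered only through the callus. *Foxc1* was at 25.5 CPM in callus and 7.18 in intact fibroblasts (46 and 15 UMIs), a ratio of 3.56 (1.95 to 6.86), and it was found in 27 of 222 and 11 of 294 cells. After thinning the shares were 4.90% (2.38 to 8.83%) and 1.49% (0.407 to 3.76%), and these intervals overlapped. Typed blood cells had shares of 0.0476% in the callus and 0.164% in the intact library. The median depths of the callus and intact fibroblasts were close, at 7851 and 7462 UMIs.

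*Cxcl12* was 1.81-fold higher in callus fibroblasts (1.48 to 2.21), under the 2-fold line. *Kitl* was at 0.703 of its intact level (0.497 to 0.988), *Ebf3* at 0.742 (0.566 to 0.967) and *Csf1* at 0.796 (0.674 to 0.939). *Lepr* had a ratio of 1.86 that its interval (0.792 to 4.58) could not tell from 1. The thinned share of fibroblasts with *Cxcl12* was 14.2% in the callus and 15.2% in the intact library, so the share did not follow the summed level. One callus cell held 40 of the 260 *Cxcl12* UMIs, and without the top cell in each library the ratio was 1.61.

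Within fibroblast types the pattern was uneven. In *Pi16*-type fibroblasts, 3.99% of 9323 genes were at least 2-fold higher and 2.61% at least 2-fold lower in the callus. Of 5 niche genes 1 was higher, *Foxc1* at 2.80 (1.44 to 5.72), and 0 were lower. *Foxc1* had 30 callus and 14 intact UMIs in these cells. It entered only through the callus, so the count says little for it. *Kitl* was at 0.520 of its intact level there (0.326 to 0.809), just inside the 2-fold line. *Cxcl12* in *Pi16*-type fibroblasts was at 94.5 CPM (78.4 to 113) in the callus and 69.2 (57.2 to 83.1) in the intact library. These 2 intervals overlapped. In *Col15a1*-type fibroblasts, with 22 callus and 39 intact cells, 9.42% of 3969 genes were at least 2-fold higher, and *Cxcl12* was the 1 of 3 niche genes to be so, at 438 and 158 CPM (2.76, 1.90 to 4.06). However, 40 of its 85 callus UMIs came from 1 cell, and the share of thinned cells with *Cxcl12* was 27.3% in callus and 28.9% in intact cells. *Foxc1* had 9 UMIs in 2 callus cells of this type (5 in 1 of them) and 0 in the intact cells, too few to compare.

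In endothelial cells, 14.5% of 4775 genes were at least 2-fold higher in the callus. *Cxcl12* was nearly level, at a ratio of 1.07 (0.905 to 1.27), and *Kitl* was at 0.697 of its intact level (0.552 to 0.890). *Ebf3* was past the line at 2.39, but rested on 3 intact UMIs, and its interval of 0.770 to 12.0 included 1. With each cell weighted equally its ratio was 1.16, and without the cell with the most *Ebf3* in each library it was 6.31. The intact endothelial cells were also shallower, with a median of 2433 UMIs against 4403, and only 17 of 28 were deep enough for thinning.

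**Figure D4:**
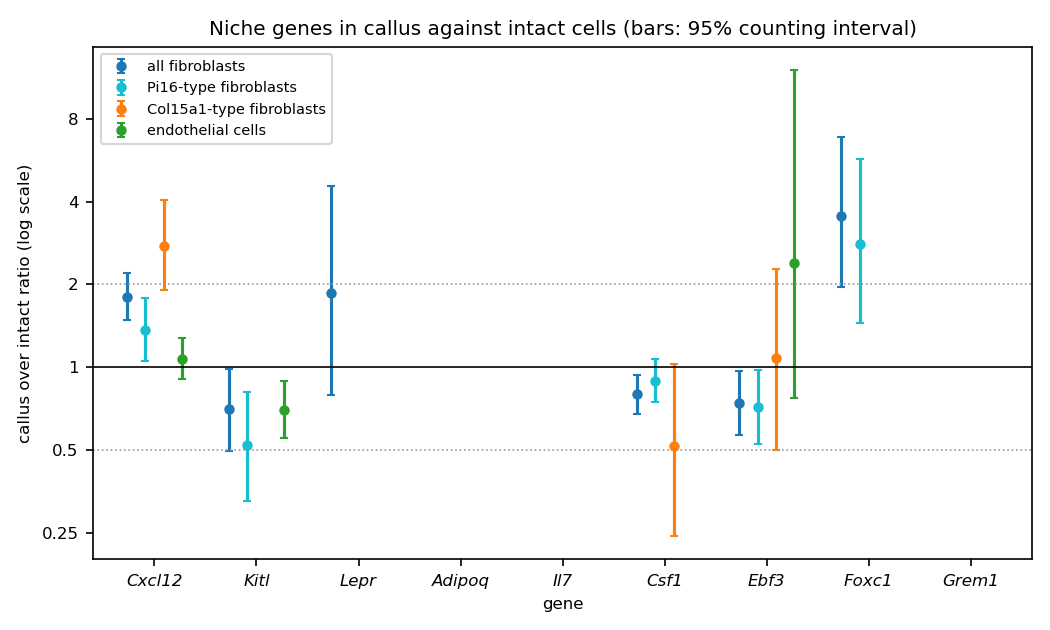
Ratio of callus over intact level (vertical axis, log scale) for the niche genes with at least 20 UMIs over both groups, in 4 kinds of cells, with bars for the exact 95% counting interval, a line at 1 and dotted lines at 2-fold. *Foxc1* in all and *Pi16*-type fibroblasts, *Cxcl12* in *Col15a1*-type fibroblasts and *Ebf3* in endothelial cells lie past 2-fold, and *Kitl* lies below 1 in each group shown.

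The receptors of the niche ligands were found mostly on other cells than the BMSC-like ones. *Cxcr4*, the signalling receptor of CXCL12, was highest in intact B cells at 379 CPM (333 to 428), then in the callus gate for eosinophils, basophils and mast cells at 335 (261 to 423) and in callus B cells at 299 (273 to 326). *Ackr3*, the scavenging receptor of CXCL12, was highest in *Pi16*-type fibroblasts, at 874 CPM (830 to 920) in the intact and 634 (591 to 680) in the callus library. No UMI of *Cxcr4*, *Ackr3*, *Kit*, *Il7r*, *Il2rg*, *Csf1r* or *Cdh13* was counted in the 37 BMSC-like cells, which allows up to 12.1 CPM for each.

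*Kit*, the receptor of KITL, was highest in callus granulocyte-monocyte progenitors at 142 CPM (133 to 151). It stood at 124 (81.3 to 182) in the callus eosinophil, basophil and mast gate and at 93.6 (68.0 to 126) in callus endothelial cells, which also made *Kitl*. In that gate only 4 of 27 cells carried *Kit*, and 1 cell held 14 of the 26 UMIs. *Il7r* was at 431 CPM (329 to 555) in intact and 328 (282 to 379) in callus T cells, at 325 in plasmacytoid dendritic cells, at 282 in pro-B and pre-B cells, and at 324 and 265 in intact and callus B cells. *Csf1r* was highest in macrophages and monocytes, at 826 CPM (655 to 1028) in intact and 578 (515 to 648) in callus macrophages and 132 and 215 in intact and callus monocytes. Of the adiponectin receptors, *Adipor1* was broad, highest in mature neutrophils at 463 and 394 CPM, whereas *Cdh13* (T-cadherin) was endothelial, at 348 CPM in the intact and 315 in the callus library. *Lep*, the ligand of LEPR, had 1 UMI in all of these groups, in a callus *Pi16*-type fibroblast.

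**Figure D5:**
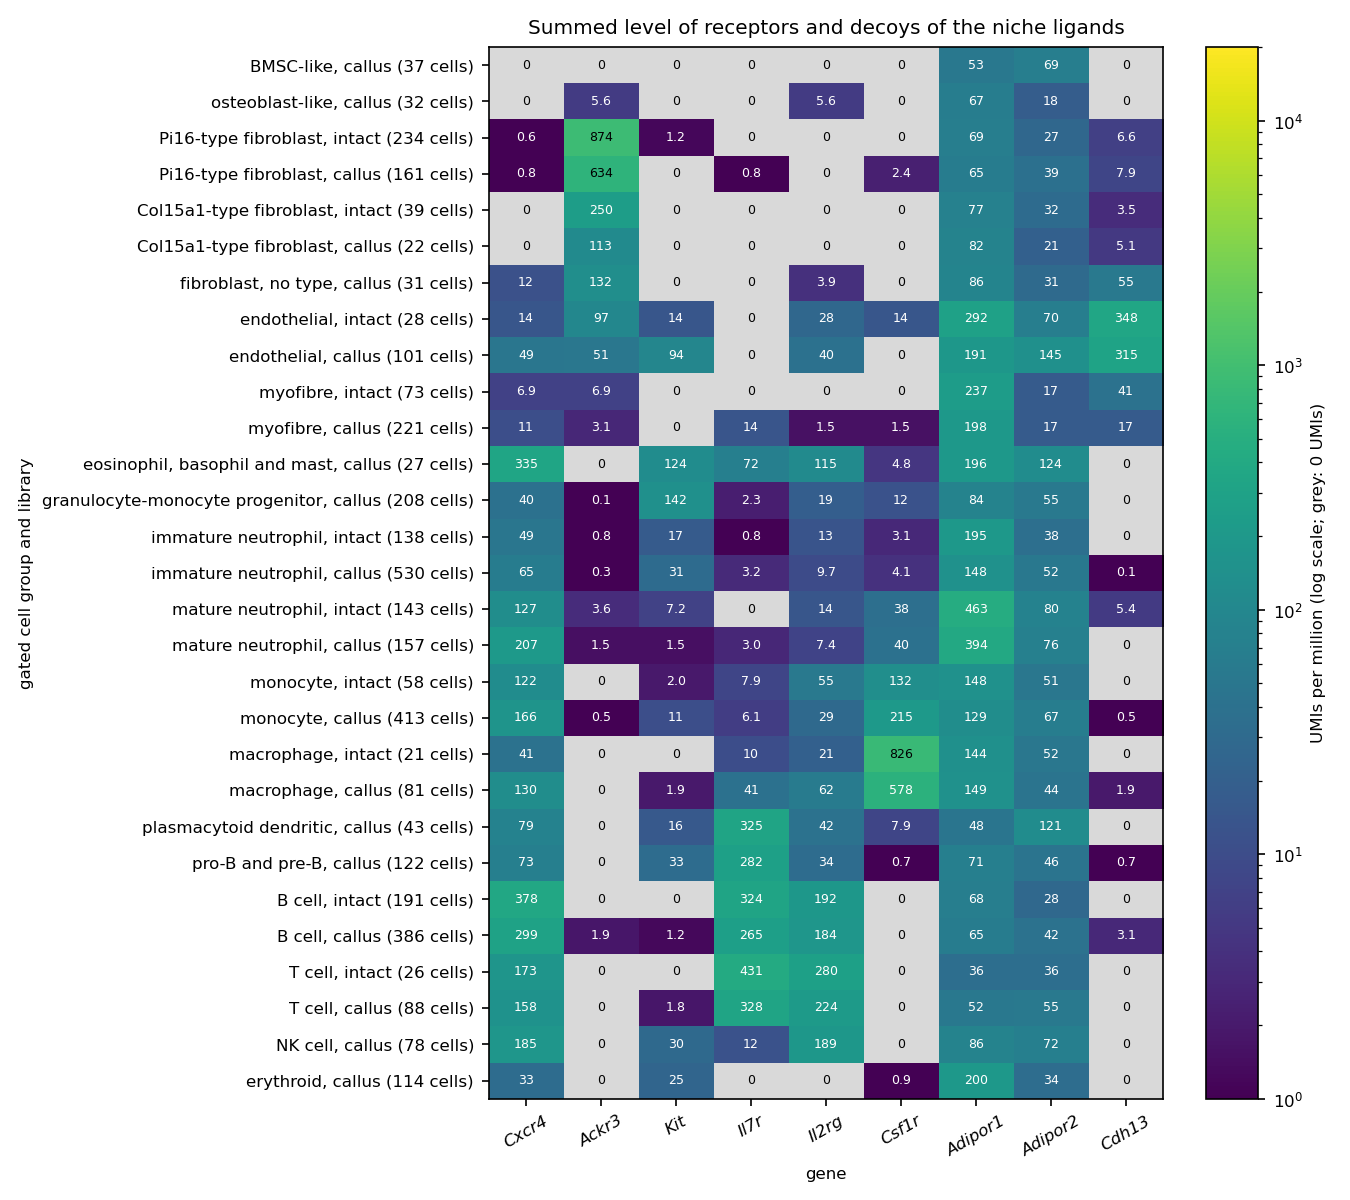
Heat map of the summed level of 9 receptors and decoys of the niche ligands (columns) by cell group and library (rows), in UMIs per 1000000 on a log colour scale, grey where no UMI was counted. *Ackr3* stands out in fibroblasts, *Csf1r* in macrophages and monocytes, *Il7r* in lymphoid cells and *Cdh13* in endothelial cells, and the BMSC-like row is grey for 7 of the 9.

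Other genes of the niche were taken as a list of 55 partner genes (receptors, proteases, further ligands, transcription factors, BMPs and BMP antagonists). *Ccl19*, whose symbol has several identifiers, was left out, and so were the gate markers *Fst* and *Dpp4* from comparisons of the BMSC-like cells. Of the 37 compared between BMSC-like cells and fibroblasts, 14 were at least 2-fold higher, 12 at least 2-fold lower and 11 neither, against 16% higher and 16.5% lower over all genes compared. Among the higher ones, those furthest apart were the transcription factor genes *Pparg*, with 28 UMIs against 0, *Runx2* (25.1-fold, 16.5 to 39.4), known for osteoblast commitment, and *Cebpa* (24.2-fold, 14.8 to 40.9), known for fat and myeloid cells. The furthest lower ones were *Ackr3*, with 0 UMIs against 866, the cytokine gene *Il6*, with 0 against 253, and *Dlk1*, an inhibitor of fat cell formation, with 0 against 52. *Pparg* entered only through the BMSC-like cells, and *Ackr3*, *Il6* and *Dlk1* entered only through the fibroblasts. The counts of higher and lower genes therefore say little for these genes. Some other genes were picked after their values were seen. *Vcam1*, an adhesion molecule for blood cells, was 20.7-fold higher (15.96 to 27.0), the osteopontin gene *Spp1* 19.3-fold (18.04 to 20.7) and *Angpt1*, the ligand of TIE2, 8.19-fold (5.78 to 11.6). *Ebf2* was lower, at 28.3 CPM against 222, in contrast to its relative *Ebf3*. However, *Ebf2* had under 20 UMIs in BMSC-like cells and entered only through the fibroblasts. *Chrdl1*, a BMP antagonist like gremlin, was 9.08-fold higher (7.17 to 11.5).

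Against osteoblast-like cells, 18 of 25 partner genes were at least 2-fold higher in BMSC-like cells, against 40.7% of all genes compared. The furthest by ratio were *Chrdl1* (162 UMIs against 1, ratio interval 82.6 to 18550), *Bmp6* (43 against 1, 21.1 to 5005) and *Vcam1* (227 against 6, 49.3 to 300.1). These 3 had under 20 osteoblast UMIs and entered only through the BMSC-like cells, so the count says little for them. Their order is not resolved by the intervals. The 2 lower ones were *Bmp7*, with 0 UMIs against 21, and *Twist1* (121 against 368 CPM), where 7.32% of all genes compared were at least 2-fold lower. *Bmp7* entered only through the osteoblast-like cells. Between callus and intact fibroblasts, 7 of 40 partner genes were at least 2-fold higher and 5 at least 2-fold lower, against 4.91% and 2.64% of all genes compared. *Spp1* (1136 UMIs against 0), *Runx1* (8.24-fold, 5.53 to 12.7) and the growth factor *Ptn* (5.97-fold, 3.93 to 9.38) were the highest, and the chemokine gene *Ccl2* (0.234, 0.190 to 0.287) and *Il15* (0.435, 0.178 to 0.969) were among the lower ones. *Spp1* entered only through the callus fibroblasts, so the count says little for it. *Il15* had under 20 callus UMIs and entered only through the intact fibroblasts, so the count of lower genes says little for *Il15*. Of the niche genes, *Foxc1* alone was past 2-fold in this comparison, with under 20 UMIs in intact fibroblasts.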

How the data were processed

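Single cells sorted for tdTomato were profiled with the 10x Chromium 3′ kit. The authors deposited raw UMI counts per gene and cell from Cell Ranger (version 6.0.0 in the matrix header, build mm10 per the labels), without normalization, for 1872 intact and 3987 callus barcodes. The UMIs of one molecule are counted once, but deep cells weigh more in summed counts.

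The cell filter asked for 500 or more detected genes and no more than 10% of UMIs from mitochondrial genes. A stromal or blood cell needed at least 4 of 10 stromal or 8 haematopoietic lineage markers and at most 3 of the other lineage. A type needed the highest share of its list, with at least 4 (blood, 3) markers, and endothelial cells at least 4 of 9 endothelial markers. These limits were set after the marker counts had been seen. Cells with 4 or more markers of both lineages were set aside as likely doublets. Groups under 20 cells were not used. The 9 genes and all lists were chosen with earlier results of these data known, and so were the named genes: the 9 members, the 3 genes most like each, receptors where highest, and the 3 furthest partner genes in each direction, of which 1 is not reported here.

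CPM are gene UMIs per 1000000 summed UMIs of the group. Intervals are 95% (exact Poisson, Clopper-Pearson, or conditional binomial for ratios) and cover counting error only, and values were rounded to 4 digits. Shares were computed after drawing 2000 UMIs per cell (seed 0), leaving out shallower cells (4 BMSC-like, 3 osteoblast-like, 18 callus and 25 intact fibroblasts, 16 callus and 11 intact endothelial cells). With 1 library per condition there was no test. Calls of 2-fold change are descriptions. The scripts were checked on simulated data. Of the identifiers, 99.8% were in GENCODE vM21. Promoter windows are RefSeq's. Python 3.11.15, NumPy 2.4.6, SciPy 1.17.1, pandas 2.3.3 and Scanpy 1.11.5 were used. 10 alternatives were set at the outset and 1 added after seeing the data.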

Additional observations from a re-analysis of the deposited data

Results flagged for a closer look

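Outside the groups compared, some niche transcripts were higher in the callus than in the intact library, beyond the counting intervals. In the 25 callus cells with both stromal and blood markers, *Cxcl12* was at 1129 CPM and *Adipoq* at 116.7 CPM, against 84.99 and 0 in 3 such intact cells. These UMIs lay in 7 and 3 callus cells, and 1 cell held 246 of the 542 *Cxcl12* UMIs. In the 107 callus cells that passed no gate, *Cxcl12* was at 197.0 CPM in 4 cells and *Adipoq* at 57.19 in 2 cells, against 8.198 and 0 in 71 intact cells. Among the 692 callus barcodes removed by the cell filter, *Cxcl12* was at 67.99 CPM, *Kitl* at 7.417, *Lepr* at 4.121 and *Adipoq* at 9.066, against 6.314, 0.8709, 0.2177 and 0.2177 in 665 intact barcodes. In the intact barcodes, 28 of the 29 *Cxcl12* UMIs were in 1 barcode. What these cells are was not tested.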

How the results depend on the processing

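The number of genes highest in BMSC-like cells stayed at 8 under all alternatives to which it applies except grouping by Leiden clusters, where it was 9, and the counts over fibroblasts and osteoblast-like cells stayed at 8 or 9. The number of niche genes at least 2-fold apart between callus and intact fibroblasts, 1 as reported, was 2 with a looser cell filter (200 genes, 20% mitochondrial), 4 with a gate asking for 1 more marker, 2 with the mean of per-cell CPM and 0 at 4-fold. *Foxc1* itself stayed between 3.41 and 3.96 in the other settings. In endothelial cells the number was 3 with clusters, 0 with the mean of per-cell CPM and 0 at 4-fold. The share of all genes at least 2-fold apart was not computed for these settings, so the counts cannot be weighed against it. The cause of these shifts was not tested. Of 451 alternative values for single genes, 47 moved by over 1.5 times, 18 of them with clusters. A reversal was counted only where a ratio at least 2-fold from 1 as reported crossed 1, and 0 did. Levels, and ratios nearer to 1, could not count as reversed. With clusters, callus and intact endothelial *Cxcl12* were 1501 and 1107 CPM and *Kitl* 482 and 599 CPM. BMSC-like cells numbered 31 to 47 over the settings, and removing the highest Scrublet scores (87 callus and 12 intact cells) took out 2 of them. No paired analysis was possible because each condition has 1 library.

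With 37 BMSC-like, 28 intact endothelial and 22 callus *Col15a1*-type cells, genes under about 20 UMIs could not be compared, and levels under the 3-count limit of a group (12.1 CPM in BMSC-like, 41.8 in intact endothelial cells) were not detectable.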
